A study of Mus musculus with 14 samples.

Results

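Integrins are paired α and β transmembrane receptors, and 10 of their subunit genes were followed here: Itga4, Itga5, Itga6, Itgal, Itgam, Itgav, Itgb1, Itgb2, Itgb5 and Itga8. They were chosen by symbol and made up 10 of the 12924 genes in each of the 2 deposited tables. All 10 passed the filter on low values in both tables, and every library held a value above 0 for each of them.

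RNA was sequenced from Lewis lung carcinoma (LLC) tumors, a transplantable mouse lung tumor line grown in the flank and taken on day 14. Hosts were p110g-/- mice, which are null for PI3K gamma, or wild-type (WT) mice, both C57BL/6. CD11b+Gr1- cells, sorted by flow cytometry from tumor suspensions and called tumor-associated macrophages (TAM), gave 4 p110g-/- and 4 WT libraries of 1000000 cells each. Whole tumor pieces of 30 mg gave 3 p110g-/- and 3 WT libraries. The implanted LLC cells carried no stated change in either group, so the genotype refers to the host and the TAM. The labels do not tie libraries to individual mice, so tests here use the spread between libraries, which may be technical. The age and sex of the mice are not stated.

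Normalized counts are whole numbers that the authors scaled and rounded. Their sum ranged over 33248294 to 38153438 among TAM libraries and 25883561 to 27586429 among whole tumors. Pik3cg, which encodes the deleted p110 gamma subunit, held 2203, 2211, 1210 and 1401 normalized counts in the p110g-/- TAM and 3745, 4477, 3070 and 2748 in the WT TAM. Whole tumors held 242, 279 and 417 in p110g-/- and 487, 616 and 527 in WT, so the groups did not overlap in either table, but RNA of the gene remained. The position of those reads within the gene was not analysed here. Summed macrophage markers were 6711 to 10497 CPM (normalized counts per 1000000 of the column total) in p110g-/- TAM and 8268 to 10270 in WT TAM. Of the 10 listed marker symbols 9 were in the tables with none at 0. The absent symbol, Emr1, is a former name of Adgre1, which was present. The share of counts in mitochondrial genes rose with the TAM library number in both genotypes. Libraries 1 to 4 held 2.73%, 3.21%, 9.01% and 14.4% in p110g-/- and 2.51%, 3.06%, 7.70% and 9.59% in WT. Summed fibroblast markers ran from 21.5 to 1205 CPM in p110g-/- TAM and from 75.3 to 1573 in WT TAM.

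Each integrin α chain pairs with a β chain, and the pair decides what the cell binds. The β2 family, with αL (Itgal, in LFA-1) and αM (Itgam, in Mac-1, also called CD11b), belongs to leukocytes and binds ICAMs, complement fragments and fibrinogen. Integrin α4 with β1 (Itga4 and Itgb1, VLA-4) binds VCAM-1 and fibronectin, and α5, α6 and α8 with β1 bind fibronectin, laminins and nephronectin or other RGD ligands. The αv chain (Itgav) pairs with several β chains, among them β5, which binds vitronectin. PI3K gamma acts below G protein-coupled and other receptors on myeloid cells, and switching α4β1 to its binding state is a known step by which it controls their entry into tumors. That step concerns the shape of the protein, which RNA levels do not measure.

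**Figure D1:**
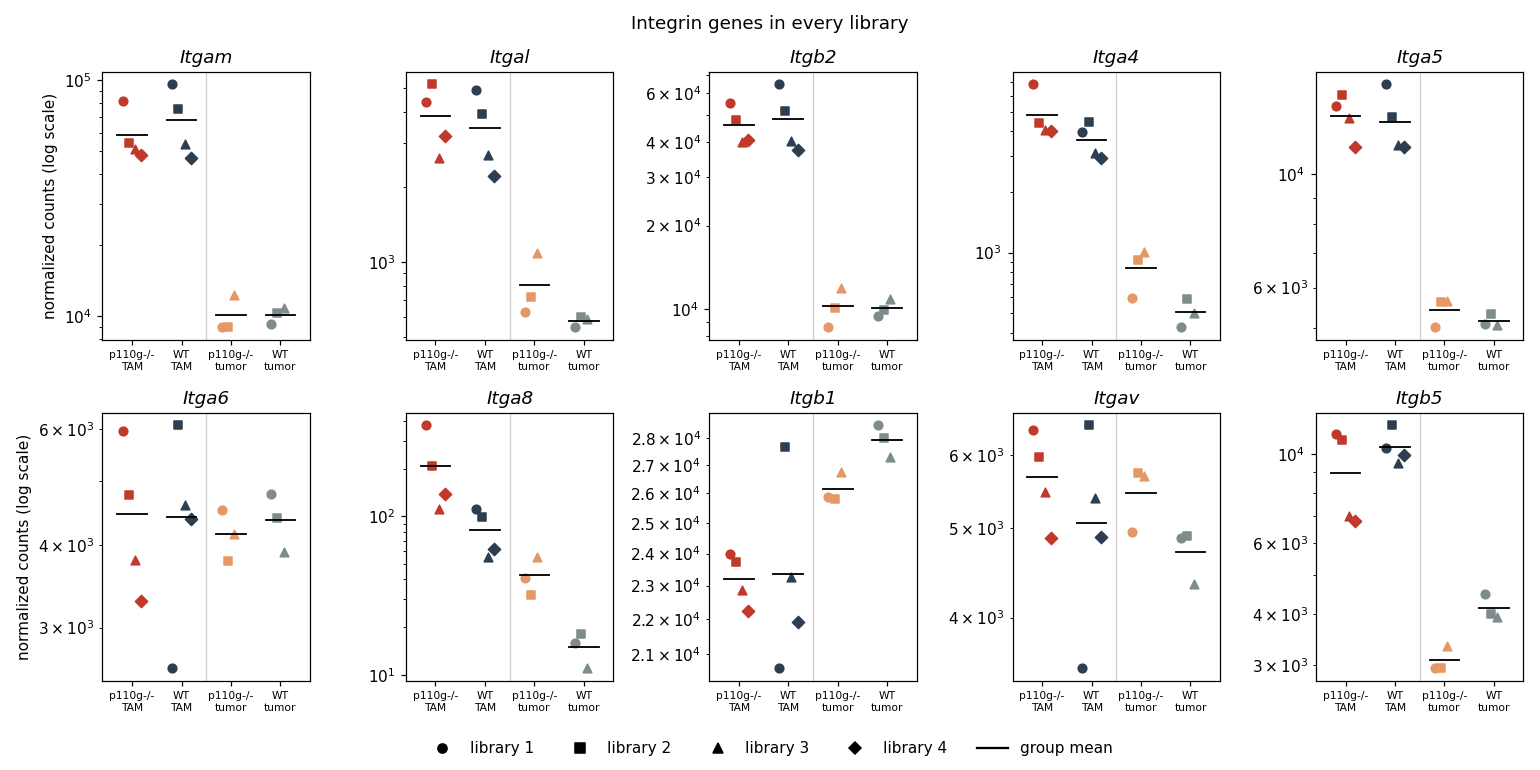
Normalized counts (log axis, a scale of its own in each panel) of the 10 integrin genes in each library, with p110g-/- left of WT, TAM left and whole tumor right of the grey line; marker shape gives the library number and the bar the group mean. Itga8 was above WT in all 3 p110g-/- tumors and Itgb5 below it, while the TAM groups overlapped for every gene.

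The β2 chain and its αM partner were the most abundant members in TAM. The sort used CD11b, the product of Itgam, so the high level of Itgam there was set by the sort and is no finding. Itgb2 encodes the chain with which CD11b pairs, so its high level in sorted cells is no independent finding either. Itgam (gene ID 16409) held 81995, 54133, 51006 and 48327 normalized counts in p110g-/- TAM libraries 1 to 4, against 96331, 75816, 53793 and 46729 in WT TAM. Itgb2 (16414), the β2 chain, held 55587, 48302, 40117 and 40590 in p110g-/- TAM, against 64897, 51879, 40567 and 37353 in WT TAM. For both genes the ranges of the genotypes overlapped, and libraries 1 and 2 were above libraries 3 and 4 in each genotype. Itgal (16408), the αL chain, showed the same split by number, at 4369, 5178, 2608 and 3201 in p110g-/- TAM and 4910, 3940, 2687 and 2208 in WT TAM. Mitochondrial share and fibroblast markers also moved with the library number, and so did summed monocyte markers, at 2626, 1339, 883 and 887 CPM in p110g-/- TAM and 2677, 1474, 1264 and 1129 CPM in WT TAM. Their part in these levels was not tested. Per 1000 bases of coding length, mean levels in p110g-/- TAM were 19978 ± 3171 for Itgb2, 16814 ± 4456 for Itgam and 1066 ± 320 normalized counts for Itgal (SD, n = 4). WT TAM averaged 21071 ± 5403, 19471 ± 6425 and 954 ± 340 for the same genes (SD, n = 4). The Itgam to Itgb2 ratio per coding length was 0.834 ± 0.101 in p110g-/- TAM and 0.911 ± 0.0734 in WT TAM, while Itgal stood at 0.0528 ± 0.0114 and 0.0444 ± 0.00521 of Itgb2 (SD, n = 4).

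In whole tumors the αM and β2 chains differed little between the genotypes. Itgam held 8992, 9032 and 12377 normalized counts in p110g-/- tumors, against 9290, 10349 and 10851 in WT tumors. Itgb2 held 8586, 10125 and 11932 in p110g-/- tumors and 9407, 9910 and 10861 in WT tumors. The p110g-/- tumors bracketed the WT tumors for both genes. Itgal was different in that all 3 p110g-/- tumors, at 628, 719 and 1080, lay above the WT tumors at 545, 599 and 589. Its log2 fold change was 0.45 (SE 0.18), and with limma the adjusted p was 0.167, so Itgal did not pass. The log2 fold changes of Itgam (−0.02, SE 0.13) and Itgb2 (0.01, SE 0.12) in whole tumors had 95% intervals of −0.31 to 0.28 and −0.26 to 0.28.

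Itga4 had the largest fold change of the members after Itga8 in both tables, higher in p110g-/-, but it did not pass in either. Itga4 (16401) held 6858, 4390, 4055 and 4026 normalized counts in p110g-/- TAM, against 3972, 4422, 3112 and 2949 in WT TAM. Library 1 of p110g-/- stood far above the other 7 TAM libraries, which overlapped. The log2 fold change was 0.40 (SE 0.20, 95% interval −0.06 to 0.87), and limma gave an adjusted p of 0.972; without p110g-/- TAM library 1 it was 0.22 (adjusted p = 0.999). In whole tumors Itga4 held 593, 918 and 1006 in p110g-/-, against 425, 589 and 502 in WT. All 3 p110g-/- tumors were above all 3 WT tumors, although p110g-/- tumor 1 exceeded WT tumor 2 by 4 normalized counts. The log2 fold change was 0.71 (SE 0.20, 95% interval 0.24 to 1.17), with an adjusted p of 0.0830 from limma that missed the threshold of 0.05. Without p110g-/- tumor 1 the log2 fold change was 0.94 (adjusted p = 0.0140), and no single omission of another tumor gave a call.

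Summed T cell markers, whose cells also carry α4 and αL, were 19.7 to 25.9 CPM in p110g-/- tumors and 4.40 to 11.2 CPM in WT tumors. Of the 7 T cell markers in the table, 4 rose (Cd3d, Cd3g, Cd8a and Lck), against 2.25% of all genes. None of the 7 was at 0 in any tumor. Cytotoxic and NK cell markers summed to 25.2 to 49.2 CPM in p110g-/- tumors and 10.2 to 20.6 in WT tumors. Of these 7 genes 2 were called higher (Prf1 and Nkg7), against 2.25% of all genes. Macrophage markers overlapped, at 1443 to 2213 CPM in p110g-/- tumors and 1343 to 1919 in WT tumors, with all 9 higher and 0 called. Neutrophil markers overlapped too, at 550 to 657 CPM in p110g-/- tumors and 367 to 610 in WT tumors. Of their 7 genes 6 were higher and 0 were called, with 3 at an unadjusted p below 0.05 (limma), against 26.2% of all genes. In bulk tumor RNA, more cells of a type and more RNA per cell cannot be told apart, and the part of these cells in the Itga4 and Itgal values was not tested. In sorted p110g-/- TAM the T cell markers were far lower than in p110g-/- tumors, at 3.53 to 7.05 CPM, with Cd8a at 0 in a library. WT TAM held 3.02 to 6.63 CPM, which overlapped the WT tumors. Of the 7 markers, 6 were tested in TAM.

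Itgb1 (16412), the shared β1 chain, was even across the libraries. It held 23989, 23724, 22873 and 22235 normalized counts in p110g-/- TAM, and 20598, 27650, 23266 and 21911 in WT TAM. Whole tumors held 25859, 25822 and 26748 in p110g-/- and 28477, 27992 and 27280 in WT, with all 3 p110g-/- tumors slightly lower. That difference was −0.09 on the log2 scale (SE 0.06) and did not pass (limma, adjusted p = 0.325). With so steady a partner, the Itga4 to Itgb1 ratio per coding length followed Itga4. It was 0.160 ± 0.0406 in p110g-/- TAM and 0.120 ± 0.0215 in WT TAM (SD, n = 4), and 0.0248 ± 0.00615 in p110g-/- tumors and 0.0140 ± 0.00237 in WT tumors (SD, n = 3). The other chain that pairs with α4 is β7 (Itgb7), with which it binds MAdCAM-1. The Itga4 to Itgb7 ratio ran from 0.744 to 0.865 in p110g-/- TAM and from 0.331 to 0.695 in WT TAM, so these ranges did not overlap. In whole tumors it ran from 0.0762 to 0.162 in p110g-/- and from 0.0666 to 0.0888 in WT, ranges that overlapped. How often the ratios of other gene pairs separate the TAM groups was not computed. Itgb7 itself averaged 4681 ± 1470 normalized counts in p110g-/- TAM and 5918 ± 2300 in WT TAM and did not pass (limma, adjusted p = 0.999; 0.0766 with the library number as a block). These ratios are descriptions with no test.

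The α5 and α6 chains did not pass in either table. Itga5 (16402), the α5 chain of the main fibronectin receptor, held 13607, 14315, 12879 and 11302 normalized counts in p110g-/- TAM and 15028, 12970, 11427 and 11302 in WT TAM. Its log2 fold change of 0.04 had a 95% interval of −0.23 to 0.32 in TAM. In whole tumors Itga5 held 5015, 5623 and 5659 in p110g-/- and 5082, 5320 and 5063 in WT, a log2 fold change of 0.07 with a 95% interval of −0.06 to 0.21. In each table this was the narrowest interval of the α chains among the 10 genes. Itga6 (16403), the α6 laminin receptor chain, held 5947, 4769, 3800 and 3286 in p110g-/- TAM and 2602, 6077, 4595 and 4387 in WT TAM. WT library 1 was the lowest of the 8 and p110g-/- library 1 the next to highest, so the number 1 libraries ran against the other 3 numbers, in which p110g-/- was lower. Its log2 fold change was 0.04 over all libraries (SE 0.27, adjusted p = 0.999 with limma). With both number 1 libraries left out it was −0.35, at an adjusted p of 0.624 and of 0.0286 with the block. That omission was chosen after the data were seen. Whole tumors held 4526, 3777 and 4157 of Itga6 in p110g-/- and 4777, 4392 and 3905 in WT, ranges that overlapped.

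Itgav (16410), the αv chain, held 6385, 5968, 5472 and 4883 normalized counts in p110g-/- TAM, and 3523, 6468, 5387 and 4886 in WT TAM. WT TAM library 1 was the low value here as well, and the other 7 libraries overlapped. In whole tumors Itgav held 4949, 5743 and 5701 in p110g-/-, above 4876, 4900 and 4347 in WT. The log2 fold change was 0.21 (SE 0.08), with an adjusted p of 0.130 from limma; without p110g-/- tumor 1 it was 0.28 (adjusted p = 0.0282).

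Itgb5 fell in the whole tumors of p110g-/- mice. Itgb5 (16419), the β5 chain that makes the vitronectin receptor with αv, held 2944, 2941 and 3347 normalized counts in p110g-/- tumors, against 4503, 4017 and 3950 in WT tumors. The groups were well apart, with a gap of 603 between them. Its mean was 3077 ± 233 in p110g-/- tumors and 4157 ± 302 in WT tumors (SD, n = 3 each), a log2 fold change of −0.43 (SE 0.07, 95% interval −0.60 to −0.26, adjusted p = 0.0280 with limma). The call depended on single libraries: the adjusted p was 0.0795, 0.0956 and 0.0569 without WT tumors 1, 2 and 3 and 0.0996 without p110g-/- tumor 2, with the log2 fold change between −0.50 and −0.37 over all single omissions. The Itgav to Itgb5 ratio per coding length was 1.39 ± 0.118 in p110g-/- tumors and 0.887 ± 0.0582 in WT tumors (SD, n = 3 each). Epithelial keratin and adhesion markers of the carcinoma cells summed to 358 to 401 CPM in p110g-/- tumors and 512 to 546 in WT tumors. Krt8 and Krt18 were called lower, as were 2.10% of all genes, and none of the 4 markers in the table was at 0. The part of these cells in the Itgb5 difference was not tested. In sorted TAM Itgb5 held 11230, 10825, 7028 and 6807 in p110g-/- and 10369, 11791, 9478 and 9945 in WT. The p110g-/- TAM split by number, 2 within the WT range and 2 below it. The log2 fold change there was −0.25 (SE 0.18), with a 95% interval of −0.67 to 0.18 (adjusted p = 0.999, limma).

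Itga8 was the rarest of the 10 genes and the one with the largest genotype difference. Itga8 (241226) encodes α8, a partner of β1 known from kidney development, where it binds nephronectin. It held 41, 32 and 55 normalized counts in p110g-/- tumors, against 16, 18 and 11 in WT tumors. Every p110g-/- tumor was above every WT tumor, but the levels lay close to the filter of 10 normalized counts. Its mean of 42.7 ± 11.6 in p110g-/- tumors against 15.0 ± 3.61 in WT tumors (SD, n = 3 each) gave a log2 fold change of 1.44 (SE 0.29, 95% interval 0.77 to 2.11, adjusted p = 0.0392 with limma). Without WT tumors 1, 2 or 3 the adjusted p was 0.102, 0.101 and 0.0963, and without p110g-/- tumors 2 or 3 it was 0.0955 and 0.124; the log2 fold change stayed between 1.25 and 1.63 in all single omissions.

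In TAM, Itga8 held 376, 208, 111 and 138 normalized counts in p110g-/-, against 111, 99, 55 and 62 in WT. The ranges met at 111, in p110g-/- library 3 and WT library 1, but within each library number p110g-/- was higher. The 4 differences ran from 1.00 to 1.75 on the log2 scale. Summed dendritic cell markers were also higher in p110g-/- in each number, at 85.3, 36.3, 55.4 and 71.0 CPM in p110g-/- TAM and 40.9, 27.9, 33.3 and 39.2 CPM in WT TAM, with none of 6 called (limma, with or without the block; 2 at an unadjusted p below 0.05, and 3 with the block, against 5.87% and 18.7% of all genes) and none at 0. Monocyte markers, given above, were lower in p110g-/- in each number. None of 5 was called without the block, and 1 had an unadjusted p below 0.05 (limma), against 5.87% of all genes. With the block 2 of 5 were called lower (Ly6c2, whose reads may be shared with near-identical genes, and Plac8), against 1.49% of all genes. None of the 5 was at 0. Fibroblast markers were lower in each number too, at 21.5, 255.6, 1205 and 793 CPM in p110g-/- TAM and 75.3, 781.9, 1438 and 1573 CPM in WT TAM, with none of 9 called (0 at an unadjusted p below 0.05, and 5 with the block) and none at 0. By single marker, the log2 fold change was above 0 for 3 of the 6 dendritic cell, 0 of the 5 monocyte and 2 of the 9 fibroblast markers. The part of these cells in the Itga8 difference was not tested. The log2 fold change was 1.24 (SE 0.41, 95% interval 0.29 to 2.19); limma gave an adjusted p of 0.612, and 0.0199 (SE 0.17) with the library number as a block. With the block and without both libraries of number 2, 3 or 4, the adjusted p was 0.0939, 0.0641 and 0.0834, and 0.0233 without number 1; these omissions were chosen after the data were seen. In the p110g-/- TAM library of lowest depth, 3 reads were worth up to 5.88 normalized counts, well below its Itga8 value of 138. Itga8 was 6.04 ± 3.69 CPM in p110g-/- TAM and 2.42 ± 0.794 in WT TAM (SD, n = 4), and 1.61 ± 0.428 in p110g-/- tumors and 0.549 ± 0.135 in WT tumors (SD, n = 3). In the authors' deposited table of TAM, the per-gene value pp, which no source explains, was 0.9999 for Itga8, the 106th highest of 12924 genes. In the authors' deposited table of whole tumors it was 0.103 for Itga8, 0.392 for Itga4 and 0.277 for Itgb5.

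**Figure D2:**
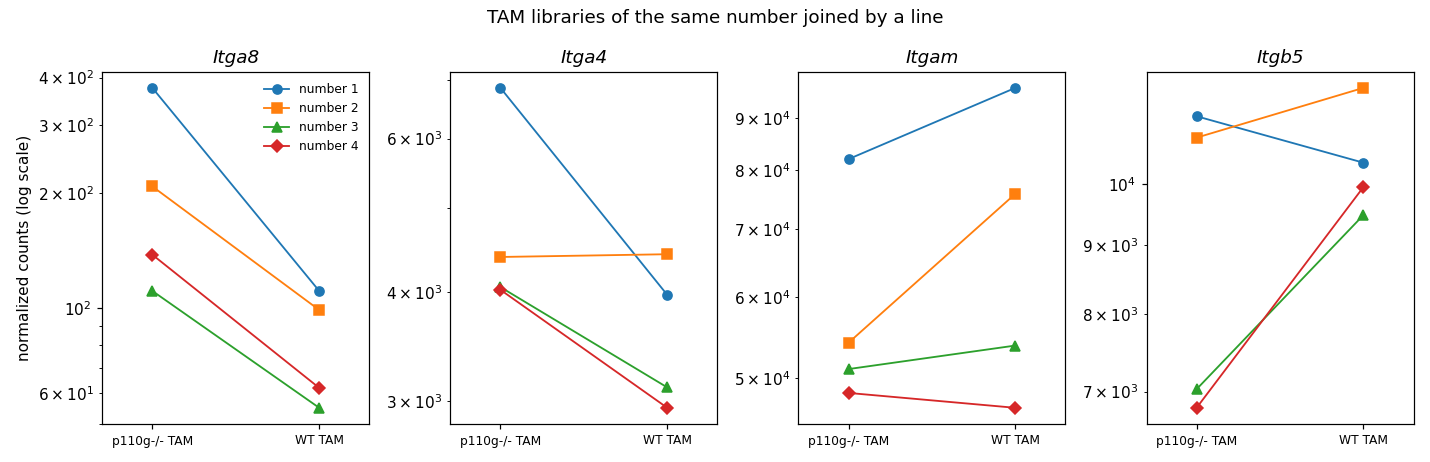
Normalized counts (log axis) of 4 integrin genes in TAM, with p110g-/- left and WT right; a line joins libraries of the same number. For Itga8 all 4 lines slope the same way, with p110g-/- higher by 1.00 to 1.75 on the log2 scale, while the lines of Itga4, Itgam and Itgb5 do not share a direction.

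Counted over the members, whole tumors held both calls, 1 gene higher and 1 lower, and TAM held none without the block. Over all genes tested in TAM, 0.0721% were called higher and 0.0401% lower, and 1 of the 10 members (Itga8) had an unadjusted p below 0.05 with limma, against 5.87% of all genes. With the block, 1.01% of all genes were called higher and 1.49% lower, against 1 and 0 of the 10 members. In whole tumors 2.25% of all genes were called higher and 2.10% lower, and 5 of the 10 members had an unadjusted p below 0.05, against 26.2% of all genes. There 4 members (Itga4, Itga8, Itgal and Itgav) were higher without overlap between the genotypes and 2 (Itgb1 and Itgb5) were lower, against 15.7% and 15.4% of all genes. In TAM no member was free of overlap, against 2.37% of all genes higher and 1.93% lower. The median log2 fold change of the members was 0.04 in TAM and 0.04 in whole tumors, against −0.01 and 0.01 over all genes tested. The genotype effect of no member was shown to differ between TAM and whole tumor: all 10 adjusted p-values of that difference were 1.00 (limma), and none of the 10 had an unadjusted p below 0.05, against 6.49% of all genes. Over all genes 0.0403% were called higher and 0.105% lower for that difference. The difference, TAM minus whole tumor, was −0.30 for Itga4 (SE 0.33), 0.19 for Itgb5 (SE 0.24) and −0.20 for Itga8 (SE 0.57). Its 95% intervals of −1.02 to 0.41, −0.33 to 0.70 and −1.44 to 1.04 leave room for sizeable differences.

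**Figure D3:**
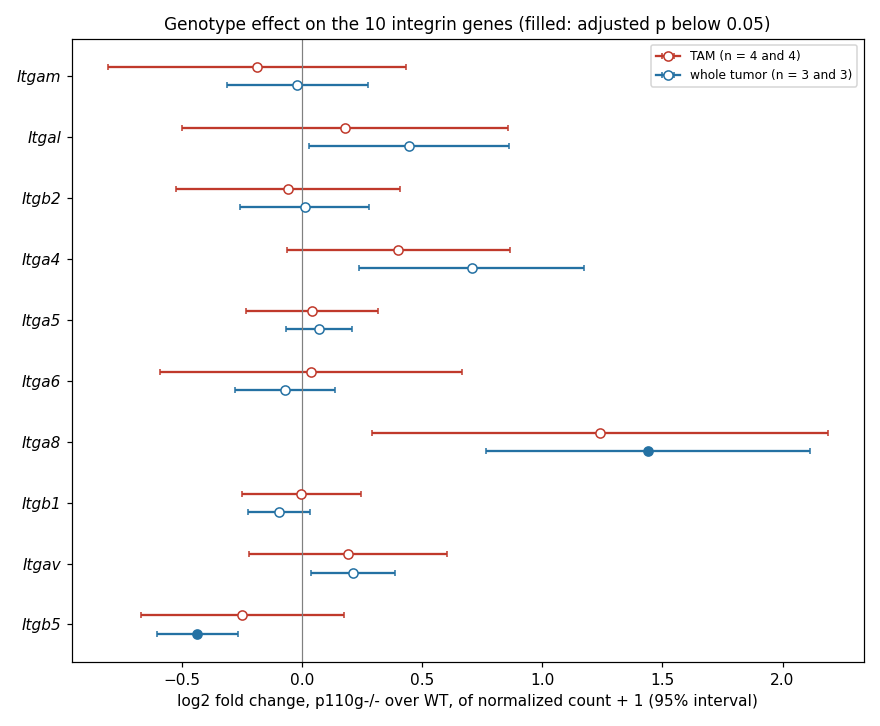
Log2 fold change of p110g-/- over WT with its 95% interval from limma, for the 10 integrin genes in TAM (upper point of each pair, n = 4 and 4) and whole tumor (lower point, n = 3 and 3); filled points have an adjusted p below 0.05. The filled points are Itga8 at 1.44 and Itgb5 at −0.43 in whole tumor.

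Sorted TAM held a larger share of the leukocyte chains than whole tumors did, and a smaller share of Itgb1. The tables were normalized separately, so each level here is a share of its own column total and no test was made. Itgam averaged 1695 ± 520 CPM in p110g-/- TAM and 382 ± 74.1 in p110g-/- tumors, a ratio of 4.44, and the WT ratio was 5.43. These Itgam ratios were set by the sort on CD11b, its product, and are no finding. Itgb2 encodes the β2 chain with which CD11b pairs, so the direction of the Itgb2 ratios was set by that sort too. The sort selects leukocytes, so a larger share of the other leukocyte chains is no independent finding either. Ratios in p110g-/- and WT were 4.38 and 5.80 for Itga4, 3.62 and 4.82 for Itgal, 3.44 and 3.92 for Itgb2, and 3.76 and 4.41 for Itga8. Itgb5, at 2.23 and 2.03, and Itga5, at 1.82 and 1.99, were also above the whole tumors in every TAM library. Itgb1 was lower in all TAM libraries than in any tumor of the same genotype, with ratios of 0.674 in p110g-/- and 0.680 in WT. Itga6 and Itgav overlapped between TAM and tumor in both genotypes. The Itga8 ratios lay within the range of those of Itga4, Itgal and Itgb2, at a far lower level. They rest on 32 to 55 normalized counts in p110g-/- tumors and 11 to 18 in WT tumors, near the filter of 10.

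**Figure D4:**
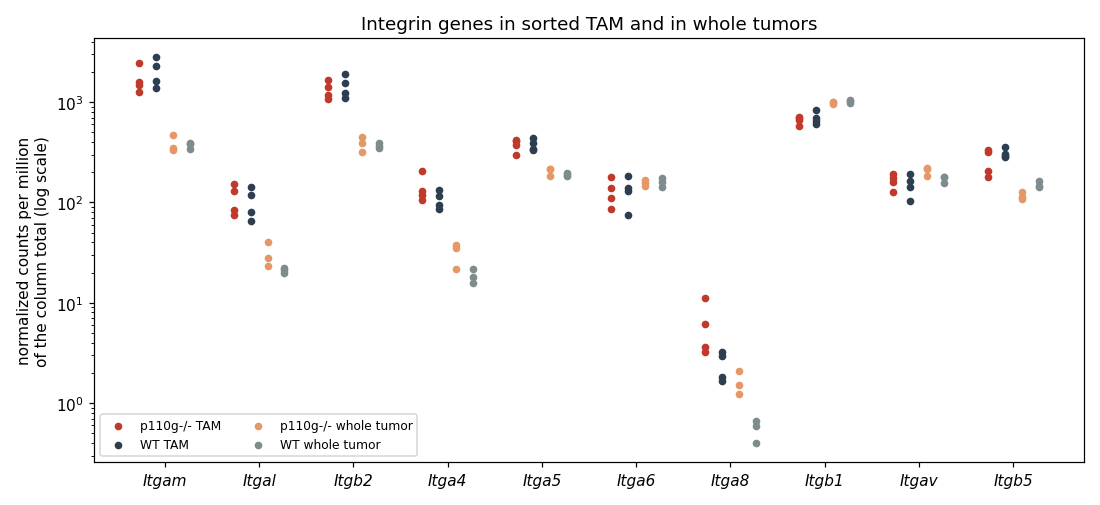
Normalized counts per 1000000 of the column total (CPM, log axis) in each library, 4 groups per gene, with p110g-/- left of WT. Itgam, Itgal, Itgb2, Itga4, Itga5, Itga8 and Itgb5 lie higher in TAM than in whole tumors of the same genotype, Itgb1 lies lower, and Itga6 and Itgav overlap. Itgam encodes CD11b, by which TAM were sorted, and Itgb2 encodes its partner chain.

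Within a group the genes kept much the same order per coding length. In p110g-/- TAM the order was Itgb2, Itgam, Itgb1, Itga5, Itgb5, Itgav, Itga4, Itga6, Itgal and Itga8. WT TAM differed only in that Itgb5 stood before Itga5 and Itga6 before Itga4. Neighbours whose libraries overlapped in both TAM groups were Itgb2 and Itgam, Itga5 and Itgb5, and the run of Itgav, Itga6, Itga4 and Itgal. In whole tumors Itgb1 came first in both genotypes, at 10920 ± 219 normalized counts per 1000 bases in p110g-/- tumors and 11661 ± 251 in WT tumors (SD, n = 3), followed by Itgb2 and Itgam. Itgb5 stood at place 7 in p110g-/- tumors, overlapping Itga6 at place 6, and at place 4 in WT tumors, overlapping Itga5. With the whole transcript length in place of the coding length, Itgb5 was at place 5 in p110g-/- tumors and at place 4 in WT tumors, and Itgam came before Itgb2 in both TAM groups.

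Promoters of the genes are shown to let the reader set the called genes, Itga8 and Itgb5, beside Itga4 and the sort marker gene Itgam. RefSeq promoters (GRCm38.p6, 250 bases before to 50 after the start of the gene) were found for 7 of the 10 members. Capitals mark GAGGAA, or TTCCTC on the other strand, core letters of the site bound by the myeloid transcription factor PU.1. Itga8 lies on chr2:12301895-12302194 (minus strand), Itgb5 on chr16:33829415-33829714 (plus), Itga4 on chr2:79255176-79255475 (plus) and Itgam on chr7:128062390-128062689 (plus), and each is written 5′ to 3′.
Itga8: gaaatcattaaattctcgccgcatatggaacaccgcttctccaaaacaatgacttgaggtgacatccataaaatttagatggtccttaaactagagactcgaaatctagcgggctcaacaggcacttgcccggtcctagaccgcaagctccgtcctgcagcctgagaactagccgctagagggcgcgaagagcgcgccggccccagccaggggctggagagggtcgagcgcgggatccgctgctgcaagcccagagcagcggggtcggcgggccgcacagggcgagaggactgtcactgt
Itgb5: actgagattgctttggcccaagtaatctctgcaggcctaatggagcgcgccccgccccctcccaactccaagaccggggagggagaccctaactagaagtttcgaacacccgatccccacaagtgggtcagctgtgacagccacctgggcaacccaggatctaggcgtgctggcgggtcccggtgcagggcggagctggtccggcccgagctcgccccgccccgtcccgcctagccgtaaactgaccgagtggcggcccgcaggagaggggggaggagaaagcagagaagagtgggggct
Itga4: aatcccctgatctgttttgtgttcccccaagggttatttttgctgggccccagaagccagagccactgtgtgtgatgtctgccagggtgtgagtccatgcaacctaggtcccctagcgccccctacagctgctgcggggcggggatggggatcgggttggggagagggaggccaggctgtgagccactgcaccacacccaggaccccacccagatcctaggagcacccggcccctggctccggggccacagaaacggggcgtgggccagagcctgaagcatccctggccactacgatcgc
Itgam: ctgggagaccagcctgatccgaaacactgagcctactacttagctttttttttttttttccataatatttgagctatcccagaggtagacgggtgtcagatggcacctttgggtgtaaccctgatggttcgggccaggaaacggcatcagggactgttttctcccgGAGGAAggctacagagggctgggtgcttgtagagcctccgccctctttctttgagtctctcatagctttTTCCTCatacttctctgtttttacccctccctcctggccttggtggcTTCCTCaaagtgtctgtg
Itgam held 3 matches, whose first bases lie at −84, −15 and 32, with 0 at the first base of the gene. Itgav held 2, and Itga5 and Itgb1 held 1 each, while the windows of Itga8, Itgb5 and Itga4 held none. The motif, searched on both strands, is in 28.3% of all 32851 promoters of this length. GGGCGG, a GC box, occurred 3 times in the Itgb5 window, once in that of Itga4 and once in that of Itgam, and not in that of Itga8; 35.7% of all promoters hold it. The Itga8 window held 23 CG dinucleotides and the Itgb5 window 20, against 10 for Itga4, 6 for Itgam and a median of 7 over all promoters.

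The genes whose pattern lay nearest to a member were sought by the root mean square difference of centred log2 values over the 14 libraries, among 12396 genes. Itga4 lay nearest to Pik3r5 (0.142), which encodes the p101 regulatory subunit of PI3K gamma, Ctsc (0.144), the protease cathepsin C, and Ptpn22 (0.145), a phosphatase of leukocytes. The median gene lay at 0.438 from Itga4. Pik3r5 held 1542 ± 303 normalized counts in p110g-/- tumors and 1043 ± 152 in WT tumors (SD, n = 3), a log2 fold change of 0.55 that did not pass (limma, adjusted p = 0.0843). Itgb5 lay nearest to 5730455P16Rik (0.117), Taf1b (0.122) and Eefsec (0.129), with the median gene at 0.329. Itga8, which had the widest range of the members at 2.75, lay nearest to Fpr2 (0.386), a formyl peptide receptor, Zc3h12d (0.431) and Selp (0.444), P-selectin, with the median gene at 0.837. Patterns here are shared over libraries that also share depth, library number and cell makeup.

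Of the 17 other integrin subunits listed, 13 were in the tables, and 1 passed, Itga9 in whole tumors, where 2.25% of all genes were called higher. There 4 of the 13 had an unadjusted p below 0.05 (limma), against 26.2% of all genes. Itga9 encodes α9, which pairs with β1 and binds osteopontin, tenascin C and VCAM-1. It held 449, 501 and 610 normalized counts in p110g-/- tumors, against 313, 307 and 333 in WT tumors. The groups did not overlap, and the log2 fold change was 0.70 (SE 0.12, adjusted p = 0.0276 with limma). The adjusted p was 0.0608 to 0.103 without WT tumor 1, 2 or 3 or p110g-/- tumor 2 or 3. In TAM Itga9 averaged 2266 ± 567 in p110g-/- and 2476 ± 659 in WT (SD, n = 4), a log2 fold change of −0.12 (SE 0.23); the difference between the effects was −0.82 (SE 0.31), with an adjusted p of 0.590. In TAM no other integrin subunit passed with or without the block (limma), with 0 of 13 at an unadjusted p below 0.05 and 4 of 13 with the block, against 5.87% and 18.7% of all genes. Itgb3, another partner of αv, averaged 282 ± 44.8 in p110g-/- tumors and 173 ± 42.8 in WT tumors (SD, n = 3), with an adjusted p of 0.0769. Itgax, the CD11c partner of β2, averaged 5755 ± 1905 in p110g-/- TAM and 5151 ± 892 in WT TAM (SD, n = 4; adjusted p = 0.999).

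**Figure D5:**
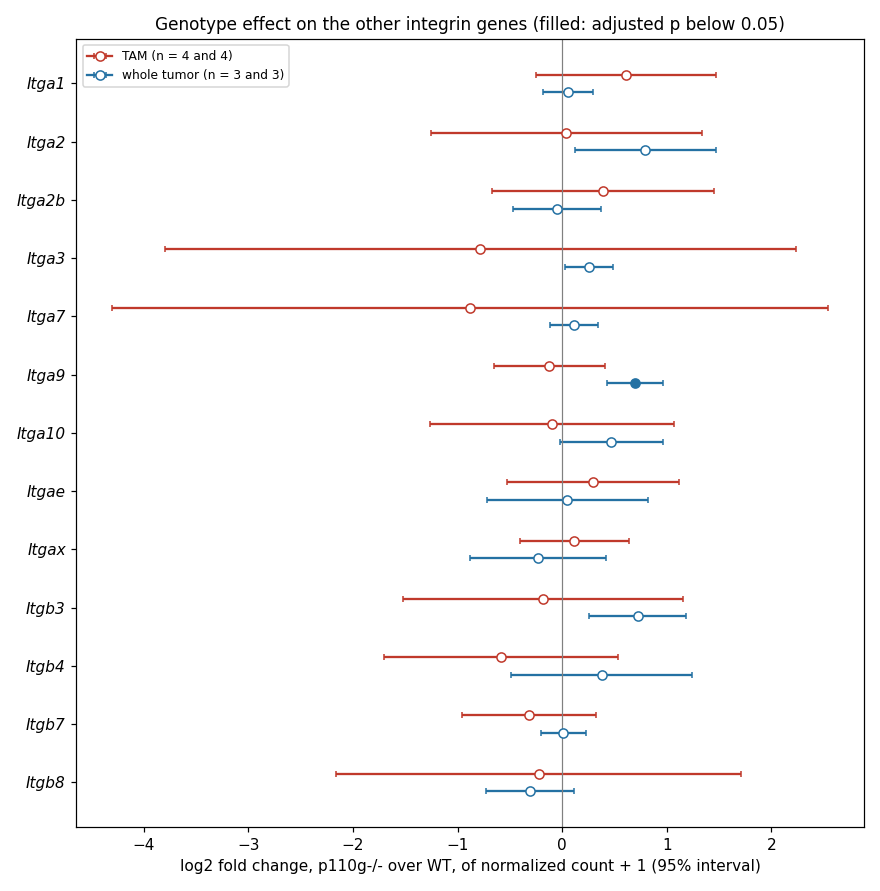
Log2 fold change of p110g-/- over WT with its 95% interval from limma, for the 13 other integrin genes in TAM (upper point, n = 4 and 4) and whole tumor (lower point, n = 3 and 3); filled points have an adjusted p below 0.05. The filled point is Itga9 in whole tumor at 0.70, and the intervals of Itga3 and Itga7 in TAM are the widest.

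Among 35 listed integrin ligands, 26 were tested in whole tumors, and 1 rose and none fell. Of all genes tested there, 2.25% rose and 2.10% fell. An unadjusted p below 0.05 was reached by 10 of the 26 ligands (limma), against 26.2% of all genes. Vcam1, the ligand of α4β1 and α9β1 on endothelium and stroma, averaged 4469 ± 374 normalized counts in p110g-/- tumors and 3579 ± 148 in WT tumors (SD, n = 3), a log2 fold change of 0.32 (SE 0.07, adjusted p = 0.0455 with limma). The adjusted p was 0.0841 to 0.141 without any single tumor other than p110g-/- tumor 1. Endothelial markers summed to 61.8 to 76.7 CPM in p110g-/- tumors and 36.6 to 59.1 in WT tumors, with 0 of 8 called (limma; 6 at an unadjusted p below 0.05, against 26.2% of all genes) and none at 0, and their part in the Vcam1 difference was not tested. The most abundant ligands did not pass: Fn1 (fibronectin) averaged 92342 ± 16164 in p110g-/- tumors and 122201 ± 13734 in WT tumors, Spp1 (osteopontin) 70180 ± 7310 and 84532 ± 16611, and Thbs1 (thrombospondin 1) 19874 ± 8541 and 26315 ± 5975 (SD, n = 3). In TAM 25 ligands were tested and none passed without the block, with 3 at an unadjusted p below 0.05, against 5.87% of all genes. With the block, C3 and Spp1 rose and Lama4 and Lamb1 fell, against 1.01% and 1.49% of all genes. With it, 10 of the 25 had an unadjusted p below 0.05 (limma), against 18.7% of all genes. C3, whose fragment iC3b is bound by αMβ2, averaged 4116 ± 672 in p110g-/- TAM and 2745 ± 634 in WT TAM (SD, n = 4), with an adjusted p of 0.530 and of 0.00739 with the block. Spp1 averaged 71553 ± 38710 in p110g-/- TAM and 41457 ± 21411 in WT TAM (SD, n = 4), with an adjusted p of 0.999 and of 0.0110 with the block. Lama4 and Lamb1, laminin chains, reached 0.0338 with the block. Fn1 averaged 256642 ± 51847 in p110g-/- TAM and 218178 ± 113878 in WT TAM, and Thbs1 63502 ± 19767 and 57959 ± 66074 (SD, n = 4); neither passed.

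Of 43 genes that activate integrins or join them to the cytoskeleton, 42 were tested, and in whole tumors 1 rose and 2 fell. Over all genes 2.25% rose and 2.10% fell there, and 11 of the 42 had an unadjusted p below 0.05 (limma), against 26.2%. Skap1, an adaptor of T cells that helps to activate αLβ2, averaged 49.3 ± 13.1 normalized counts in p110g-/- tumors and 20.3 ± 3.51 in WT tumors (SD, n = 3), a log2 fold change of 1.22 (adjusted p = 0.0413 with limma). Tns1, a tensin that binds β tails at focal adhesions, averaged 767 ± 99.6 in p110g-/- tumors and 1157 ± 120 in WT tumors (log2 fold change −0.59, adjusted p = 0.0311). Tln2, the talin 2 gene, averaged 1163 ± 122 in p110g-/- tumors and 1492 ± 30.3 in WT tumors (log2 fold change −0.36, adjusted p = 0.0458). Without any single WT tumor or p110g-/- tumor 2, none of these 3 genes passed (adjusted p from 0.0711 to 0.150), and without p110g-/- tumor 3 Skap1 (0.124) and Tln2 (0.104) did not. Flna, Tln1 and Actn1, the most abundant of the list in whole tumors, had log2 fold changes of 0.04, 0.16 and −0.07 and did not pass. In TAM none of the 42 passed without the block (limma), with 1 at an unadjusted p below 0.05, against 5.87% of all genes. With the block Rasgrp4 fell (log2 fold change −0.35, adjusted p = 0.0478), as did 1.49% of all genes. With it, 12 of the 42 had an unadjusted p below 0.05, against 18.7% of all genes. Flna, Tln1 and Rap1b were the most abundant there, with log2 fold changes of −0.10, −0.12 and −0.21.

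The list of PI3K gamma with its input had 17 genes, all tested, and none passed without the block in either comparison (limma); 3 in TAM and 9 in whole tumors had an unadjusted p below 0.05, against 5.87% and 26.2% of all genes. With the block, Pik3cg fell in TAM, with an adjusted p of 0.00557 against 0.299 without it (log2 fold change −1.02). In whole tumors the Pik3cg log2 fold change was −0.83 (limma, adjusted p = 0.0555 without the block). The block called 3 of the 17 genes higher and 1 lower there, against 439 and 320 of all 12717 genes. Whole tumor numbers did not pair the libraries, as described below. Ccr2, the receptor by which CCL2 draws monocytes, averaged 38445 ± 22350 normalized counts in p110g-/- TAM and 39853 ± 15885 in WT TAM (SD, n = 4). Gnb1 and C5ar1, the next in TAM, had log2 fold changes of 0.02 and 0.04. In whole tumors Gnb1, Akt1 and Il1r1 were the most abundant, with log2 fold changes of −0.16, −0.05 and 0.17.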

How the data were processed

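RNA was measured in 8 TAM and 6 whole tumor libraries. The submitters' processing notes name Bowtie2, DESeq and the build mm9. The counter, its annotation and strand setting and the scaling formula are not stated. The authors deposited whole numbers that they had scaled per library and rounded, here treated as a score and called normalized counts, and a value per gene from 0 to 1, pp, that no source explains. The labels assigned every column to a library, and 0 columns were left over. The tables name genes by identifier and symbol and give no coordinates, and 21 symbols turned into dates were renamed by identifier. Reads that near-identical or overlapping genes share may be split between them.

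From these values, log2(normalized count + 1) was fitted with limma 3.58.1 (R 4.3.3, mean-dependent prior) over all genes with at least 10 normalized counts in at least 4 TAM or 3 whole tumor libraries: 12475 genes in TAM, 12717 in whole tumor and 12396 for the difference of the genotype effects. Tests were two-sided, Benjamini-Hochberg adjustment ran over all genes tested, and a gene rose or fell when its adjusted p was below 0.05. Fold changes on this scale understate the change of low genes. The fit was tested on simulated data with independent noise in each library, which leaves out the shared deviations of same-numbered TAM libraries. A floor of 3 reads was worth at most 5.88 normalized counts in TAM libraries and at most 3 in whole tumors, counting error only. Coding lengths are the longest in GENCODE M21. Promoters are RefSeq's (GRCm38.p6); no coordinate of that build was combined with mm9.

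Same-numbered TAM libraries deviated together from their group means (correlations over genes of 0.847, 0.472, 0.808 and 0.702), so their number was used as a block and its value is given where it changes a call. The p110g-/- library 4 correlated as well with WT library 3 (0.704), so 4 pairs cannot be told apart from a coarser structure. Genes named besides the 10 members were the called genes and the 3 most abundant of each list, the partners of members, and the 3 nearest in pattern to Itga4, Itgb5 and Itga8. The members and lists were chosen with earlier results of these data known. Other pseudocounts, filters, scalings, sample weights, a fit of all 14 libraries and single omissions were tried.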

Additional observations from a re-analysis of the deposited data

Results flagged for a closer look

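Library 1 of the p110g-/- TAM held 6858 normalized counts of Itga4, against 4026 to 4390 in the other 3 p110g-/- TAM libraries, and its gap to the next library was 0.872 of the group's whole range. That exceeds Dixon's 95% critical value for 4 samples. Of the 20 groups of 4 TAM libraries examined for the 10 genes, this was the only one set apart in this way, and chance sets apart about 1 in 20. WT TAM library 1, at 3972, lay within the WT range. The same p110g-/- library held the highest Itga8 value of the group, 376.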

How the results depend on the processing

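Called genes in TAM, 14 over all genes, numbered 9 with a filter of 50 normalized counts, 312 with the replicate block, 999 with sample weights, 87 in the fit of all 14 libraries and 3 to 40 with 1 library left out. Chosen after seeing the data, omission of both number 1 libraries gave 133, and with the block, omission of number 1, 2, 3 or 4 gave 611, 78, 91 and 98. In whole tumors the 553 called genes became 2308 with weights, 14 in the 14-library fit and 29 to 2001 with 1 library left out; equal column totals gave 393 higher and 182 lower, against 286 and 267, and moved the median of all genes to 0.05. For the difference of the effects, 18 genes became 327 with the block, 1249 with weights, 225 without both number 1 libraries and 0 to 101 with 1 library left out. Weights did not converge in 2 fits, which are not identified here, so calls made with weights are uncertain.

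Whole tumor numbers did not pair the libraries (correlations 0.0947, 0.0763 and 0.178; p110g-/- tumor 2 correlated best with WT tumor 1). With the replicate block there, 759 genes were called, Itga4 had an adjusted p of 0.0296 and Itga8 one of 0.0587. In the 14-library fit the whole tumor adjusted p was 0.615 for Itgb5 and 0.384 for Itga8. Itga8 in TAM passed with weights (log2 fold change 1.23, adjusted p = 0.0167), as did Itga4 (0.0198) and Itgav (0.0360) in whole tumors, and Itgal without p110g-/- tumor 1 (0.0450). The block changed no other member's call in TAM. Pseudocounts, filters and scalings changed no member's call in either table, except that a filter of 50 left Itga8 out of the whole tumor test; equal column totals took Tln2 in whole tumors to an adjusted p of 0.0535, and the whole tumor block took Vcam1 to 0.0577. In the 14-library fit Itga9, Vcam1, Skap1, Tns1 and Tln2 had adjusted p-values of 0.482 to 1.00.

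Members near 0 changed sign, none of them called unless stated. In TAM, equal column totals gave log2 fold changes of −0.0107 for Itga5 and −0.0156 for Itga6; median ratios gave 0.000399 for Itgb1; weights gave −0.313 for Itga6, −0.0114 for Itgav and 0.0380 for Itgb2. Without both number 1 libraries, with or without the block, the values were −0.347 for Itga6 (called with the block), −0.0315 for Itgav and 0.000246 for Itgb2. With the block, Itgb1 was 0.0722 without number 2 and 0.00670 without number 3, and Itga5 was −0.000318 without number 3. Single omissions spanned −0.00922 to 0.128 for Itga5, −0.195 to 0.213 for Itga6, −0.00968 to 0.375 for Itgal, −0.0586 to 0.0830 for Itgb1 and −0.171 to 0.0942 for Itgb2 in TAM. In whole tumors they spanned −0.145 to 0.000240 for Itga6, −0.170 to 0.0600 for Itgam and −0.107 to 0.130 for Itgb2, and equal totals gave 0.0273 for Itgam. The difference of the effects for Itga8 spanned −0.539 to 0.0447.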
